A study of Mus musculus with 6 samples.

Results

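Methionine sulfoxide reductases and glutaredoxins are small enzymes that repair oxidized protein side chains. The genes described here are Msra, Msrb1, Msrb2 and Msrb3 of the first family and Glrx, Glrx2 and Glrx5 of the second, taken by exact symbol from the deposited table. They are 7 of the 14005 genes listed, and all 7 were measured. RNA came from bone marrow-derived macrophages (BMDM), primary mouse macrophages grown from marrow, on a C57BL/6J background. The 3 libraries labelled Txn1 KO carry Txn1tm1.1Ees/J, an allele of the thioredoxin-1 gene, together with B6.129P2-Lyz2tm1(cre)lfo/J, a Cre recombinase inserted into the lysozyme gene Lyz2, which macrophages express. The 3 control libraries are wild-type. Both groups are given as pooled male and female, and neither age nor culture is given. The study asked how loss of thioredoxin-1 bears on genes of the NLRP1 inflammasome, a sensor of the innate immune system.

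Reactive oxygen turns methionine in proteins into methionine sulfoxide, in an S and an R form. MsrA reduces the S form and the MsrB enzymes the R form, and both families draw their electrons mainly from thioredoxin, which thioredoxin reductase recharges with NADPH. In macrophages MsrB1 is known for reversing the oxidation of actin methionines by the MICAL enzymes. Glutaredoxins use glutathione instead: they remove glutathione from protein cysteines, and the mitochondrial Glrx5 hands on iron-sulfur clusters. The members thus sit on both sides of the electron supply that the Txn1 allele addresses.

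The members differ at the residue that does the chemistry, and the coding sequence shows it. The stretches below are 27 bases of the coding strand, 5′ to 3′, from the GENCODE M21 transcripts (GRCm38), with the catalytic codon in capitals. They are shown because the member that rose is the only one whose catalytic codon is not a cysteine codon. Any link between the codon and the rise was not tested.
Msrb1: caatcaagattcTGAatatttagcagc
Msrb2: ggccaaaggtttTGCatcaacagtgtg
Msrb3: ggcaaaagatacTGCatcaactcagca
Msra: tttggaatgggcTGCttctggggagct
Glrx: atcaagcccaccTGCccctactgcaga
Glrx2: tcaaaaacatccTGCtcttactgttcc
Glrx5: gagcagccccagTGCggcttcagcaac
In Msrb1 the codon is TGA, normally a stop, which is read here as selenocysteine. It is codon 95 of 116, at chromosome 17, bases 24740158 to 24740160, and GENCODE annotates selenocysteine at that place. The other 6 members have TGC, a codon for cysteine. In Msra it is codon 72 of 233, on chromosome 14 at 64285173 to 64285175, minus strand.

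Of the 7 members, Msrb1 rose and Msra fell, and 5 did not pass the test. The 2 calls are 28.6% of the members, beside 21.5% of all 13977 genes tested. Calls rest on limma, fitted to log2(normalized count + 1) with a variance trend, and a Benjamini-Hochberg adjusted p under 0.05 over all tested genes, two-sided. A normalized count is a gene's read count after the authors scaled each library by its size factor. The median log2 difference of the 7 members was -0.063, against -0.0049 over all genes tested. All log2 differences below are libraries labelled Txn1 KO minus wild-type.

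Whole reads recovered from the table summed to 22508616 to 31127228 in the libraries labelled Txn1 KO and to 29716640 to 38726953 in wild-type. The macrophage marker Csf1r was high in all 6 (51611 to 52599 normalized counts in libraries labelled Txn1 KO and 49624 to 51976 in wild-type). Of 8 tested rows for 7 macrophage markers, 3 were called higher and 3 lower in libraries labelled Txn1 KO. These rows hold Itgam more than once, and also Lyz2. Mertk had 3017 to 3317 normalized counts in them against 1909 to 2141 in wild-type. Fcgr1 had 5078 to 5644 in libraries labelled Txn1 KO against 8580 to 9087 in wild-type. Txn1 itself had 12349 ± 367 normalized counts in libraries labelled Txn1 KO and 12580 ± 532 in wild-type (SD, n = 3 each). Such whole-gene totals do not check a deletion whose extent no label gives. Lyz2, which the insertion interrupts, had 3118 ± 1281 normalized counts in libraries labelled Txn1 KO and 364408 ± 3550 in wild-type, a difference that follows the labels in all 6 libraries. By design, the Cre insertion and the Txn1 allele cannot be told apart in any comparison here. Txn1 KO replicate 3 and wild-type replicate 1 also held liver transcripts, the albumin gene Alb reaching 580.0 and 642.9 normalized counts in them, while no other library exceeded 0.838. The log2 differences and the counts of calls were therefore also computed without these 2 libraries.

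Msrb1 (ENSMUSG00000075705, chromosome 17, 24736642 to 24742778, plus strand, GRCm38) encodes the cytosolic and nuclear selenoprotein that reduces the R form. It had 13650.0, 13746 and 13715 normalized counts in the libraries labelled Txn1 KO, against 11745, 10799 and 11406.5 in wild-type. The lowest Txn1 KO library stood above the highest wild-type library, and the Txn1 KO libraries lay close together. The means were 13704 ± 49.0 normalized counts in libraries labelled Txn1 KO and 11317 ± 479 in wild-type (SD, n = 3 each), a ratio of 1.21. Msrb1 rose by 0.28 ± 0.035 on the log2 scale (SE; 95% interval 0.20 to 0.35; limma adjusted p = 1.61e-05), higher in 3 of 3 libraries. Leaving out both liver-transcript libraries, it rose by 0.30 (limma adjusted p = 3.62e-08). In size the change was modest, larger in absolute value than that of 76.6% of the genes tested.

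Msra (ENSMUSG00000054733, chromosome 14, 64122625 to 64455903, minus strand) encodes the reductase of the S form, found in cytosol and mitochondria. It had 959.8, 903.3 and 997.2 normalized counts in the libraries labelled Txn1 KO, against 1129, 1115 and 1136 in wild-type. Here the wild-type libraries lay close together, and every Txn1 KO library was below all of them. The means were 953.4 ± 47.3 normalized counts in libraries labelled Txn1 KO and 1127 ± 10.7 in wild-type (SD, n = 3 each), and the first is 84.6% of the second. Msra fell by 0.24 on the log2 scale (SE 0.054; 95% interval -0.36 to -0.13; limma adjusted p = 0.00330). The call held in every alternative run, and without the 2 libraries with liver transcripts the difference was -0.27. GENCODE lists 9630015K15Rik on the opposite strand inside Msra. It has no row in the table, and no source used here says whether the counting used strand.

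**Figure D1:**
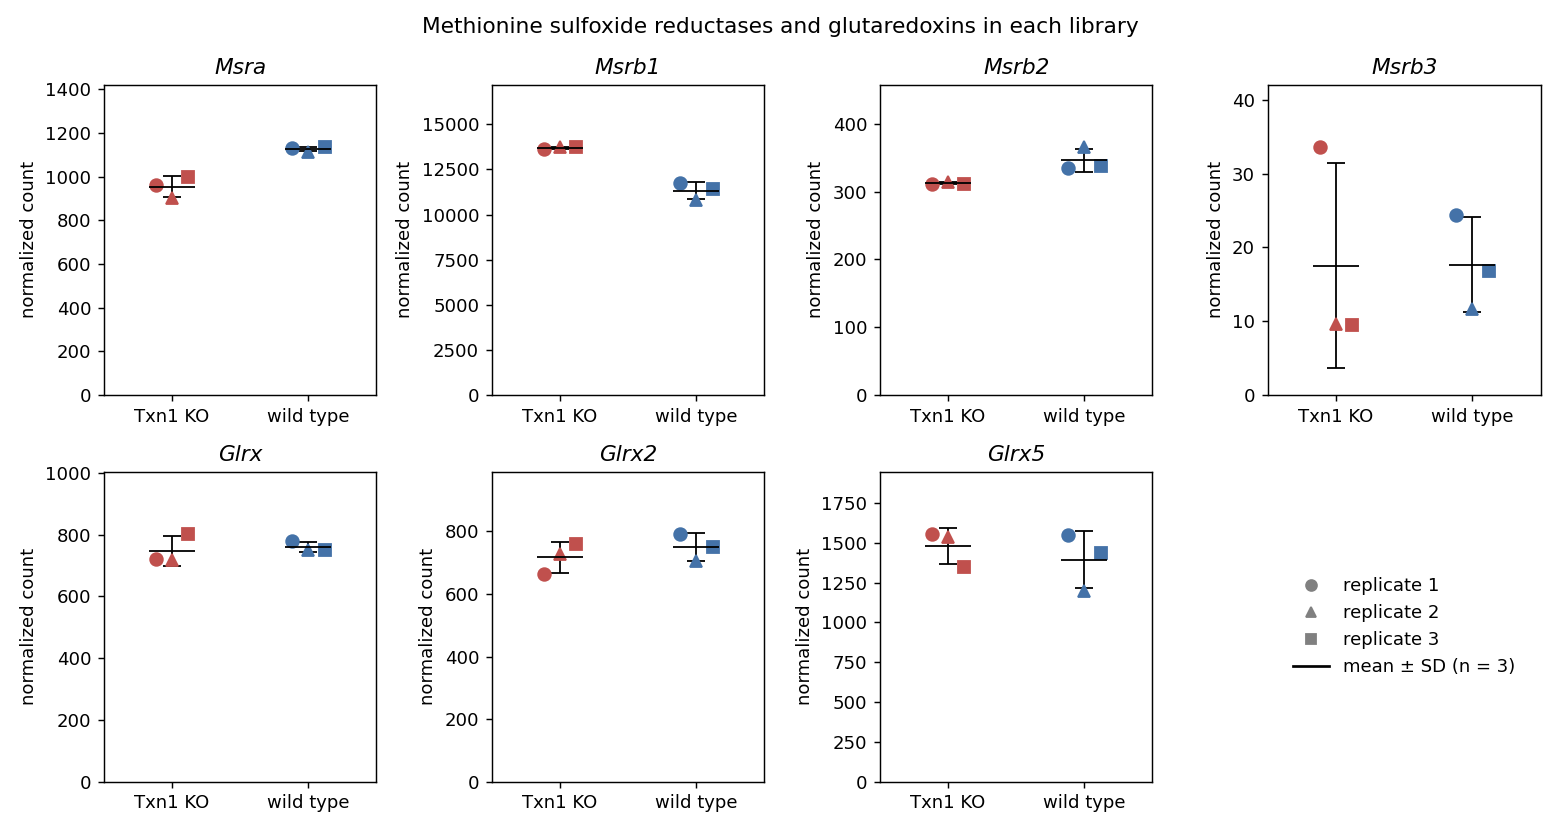
Normalized count (y axes, each from 0) of the 7 members in each library, libraries labelled Txn1 KO in red and wild-type in blue, with symbols for the replicate number and the mean ± SD in black (n = 3). Msrb1 is higher and Msra and Msrb2 are lower in all 3 Txn1 KO libraries, while the groups overlap for Msrb3, Glrx, Glrx2 and Glrx5.

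Msrb2 (ENSMUSG00000023094, chromosome 2, 19371440 to 19394976, plus strand) encodes the mitochondrial MsrB. Its values were 311.8, 313.8 and 310.9 normalized counts in the libraries labelled Txn1 KO and 334.2, 366.0 and 337.9 in wild-type. The groups did not overlap, as was so for 3 of the 7 members and for 36.2% of all genes tested. Its log2 difference of -0.15 (95% interval -0.32 to 0.03) did not pass (limma adjusted p = 0.239). The interval leaves room for a level between 80.0% and 102% of wild-type.

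Msrb3 (ENSMUSG00000051236, chromosome 10, 120781096 to 120899101, minus strand) encodes the MsrB of the endoplasmic reticulum, and was barely detected. The libraries labelled Txn1 KO held 29, 10 and 7 of its reads and the wild-type libraries 24, 15 and 20. In normalized counts these are 33.6, 9.57 and 9.42 in libraries labelled Txn1 KO against 24.5, 11.7 and 16.8 in wild-type. The first replicate was the highest in each group and the groups overlapped. Its log2 difference of -0.20 had a 95% interval of -1.21 to 0.81 (limma adjusted p = 0.830), and a level between 43.4% and 176% of wild-type could not be told from no difference at this depth. The sign was positive without Txn1 KO replicate 2 (0.09) or 3 (0.10), without wild-type replicate 1 (0.06) and without both libraries with liver transcripts (0.35). Stromal markers were lower in the same comparison, with 6 of 8 called lower and sums of 1156 to 2037 in libraries labelled Txn1 KO against 2471 to 2760 in wild-type. Their part in the values of Msrb3 was not tested. Msrb3 lies 3.50 Mb from Lyz2 on chromosome 10, where the Cre insertion stands.

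Over all 6 libraries none of the glutaredoxins passed, and the groups overlapped for all 3. Glrx (ENSMUSG00000021591, chromosome 13, 75839868 to 75850154, plus strand) encodes the cytosolic glutaredoxin that removes glutathione from proteins. It had 719.9, 716.7 and 803.4 normalized counts in the libraries labelled Txn1 KO and 779.5, 749.1 and 752.1 in wild-type. The highest and the lowest value were both in Txn1 KO libraries. The log2 difference of Glrx was -0.03 (limma adjusted p = 0.813), and its 95% interval of -0.16 to 0.10 spans 89.5% to 107% of wild-type. Without Txn1 KO replicate 2 it was 0.00077.

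Glrx2 (ENSMUSG00000018196, chromosome 1, 143716338 to 143749676, plus strand) encodes the glutaredoxin of mitochondria and nucleus. It had 664.2, 727.2 and 760.4 normalized counts in the libraries labelled Txn1 KO and 792.7, 704.1 and 750.4 in wild-type. Values of both groups were interleaved. Its log2 difference was -0.06 (95% interval -0.21 to 0.08, limma adjusted p = 0.576), and it stayed below 0 in every alternative run, between -0.11 and -0.0089.

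Glrx5 (ENSMUSG00000021102, chromosome 12, 105032688 to 105042906, plus strand) is the member whose result depends on the libraries used. It had 1557, 1535 and 1347 normalized counts in the libraries labelled Txn1 KO and 1547, 1195 and 1435 in wild-type. The Txn1 KO library with liver transcripts was the lowest of its group, and the wild-type library with them was the highest of its own. Over all 6 libraries the log2 difference was 0.09 (95% interval -0.07 to 0.26, limma adjusted p = 0.453). Without those 2 libraries it was 0.24 and passed (limma adjusted p = 0.00607), which made 3 of 7 members called, beside 21.1% of all genes tested in that fit. Without wild-type replicate 2 the difference was -0.01. The part of the liver transcripts in this result was not tested.

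**Figure D2:**
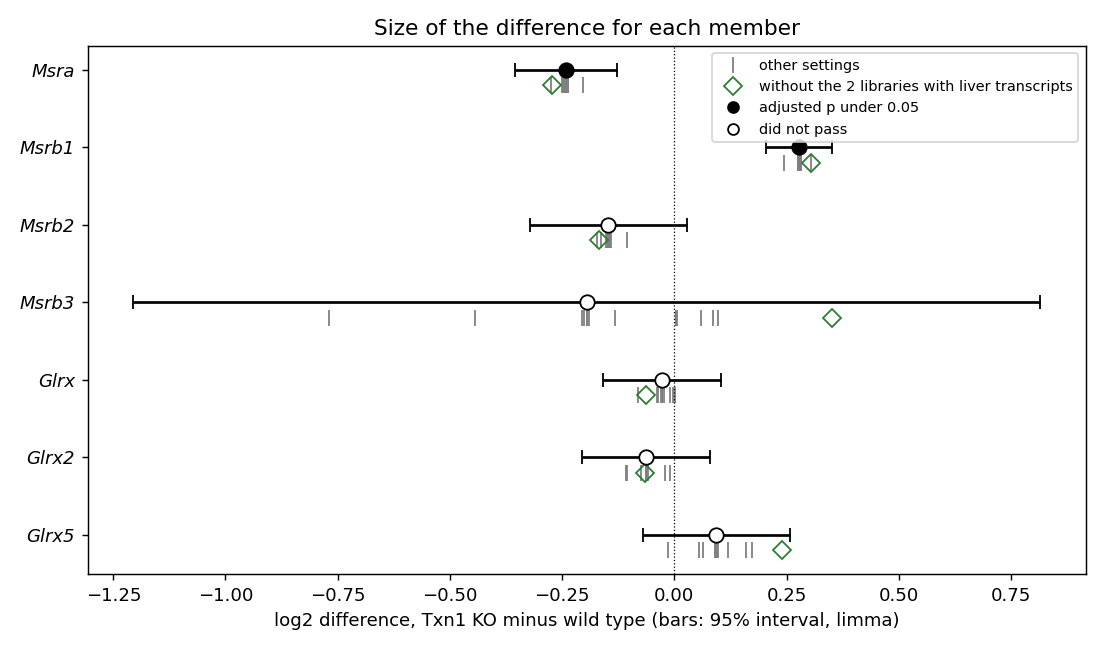
Log2 difference of each member (x axis, Txn1 KO minus wild type), with black circles and 95% intervals for the fit over all 6 libraries, filled where the adjusted p is under 0.05. Grey ticks are the other settings and green diamonds the fit without the 2 libraries with liver transcripts, where Glrx5 moves to 0.24 while Msra (-0.27) and Msrb1 (0.30) stay on their sides.

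Levels can be compared between genes only per length, so the normalized counts were divided by the kilobases of all annotated exons of the gene. On that scale Msrb1 had 10893 ± 38.9 per kb in the libraries labelled Txn1 KO and 8996 ± 381 in wild-type (SD, n = 3 each), above 99.0% of the genes with a length. The next member, Glrx5, had 401.8 ± 31.3 per kb in libraries labelled Txn1 KO and 378.2 ± 48.8 in wild-type. Msrb2 followed with 226.7 ± 1.10 per kb in libraries labelled Txn1 KO and 251.3 ± 12.6 in wild-type, and Msra with 222.0 ± 11.0 in libraries labelled Txn1 KO and 262.3 ± 2.48 in wild-type. Msrb2 and Msra did not differ beyond their spread in either group. Glrx had 135.9 ± 8.95 per kb in libraries labelled Txn1 KO and 138.4 ± 3.05 in wild-type, and Glrx2 had 81.8 ± 5.57 in libraries labelled Txn1 KO and 85.4 ± 5.06 in wild-type. Msrb3 came last, at 4.33 ± 3.44 per kb in libraries labelled Txn1 KO and 4.35 ± 1.59 in wild-type.

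The order in the middle depends on the length used. The annotated exons of Glrx total 5494 bases, and its longest coding transcript has 1345. For Glrx2 these lengths are 8772 and 3515 bases, and the expressed isoforms are not given. Divided by the longest coding transcript, Glrx had 555.1 ± 36.6 per kb in the libraries labelled Txn1 KO and 565.2 ± 12.4 in wild-type. Msra then had 512.6 ± 25.4 in libraries labelled Txn1 KO and 605.8 ± 5.74 in wild-type, and Glrx5 had 505.8 ± 39.4 in libraries labelled Txn1 KO and 476.1 ± 61.4 in wild-type. On this scale all 3 stood ahead of Msrb2 and Glrx2. Msrb1 was first and Msrb3 last on both scales.

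**Figure D3:**
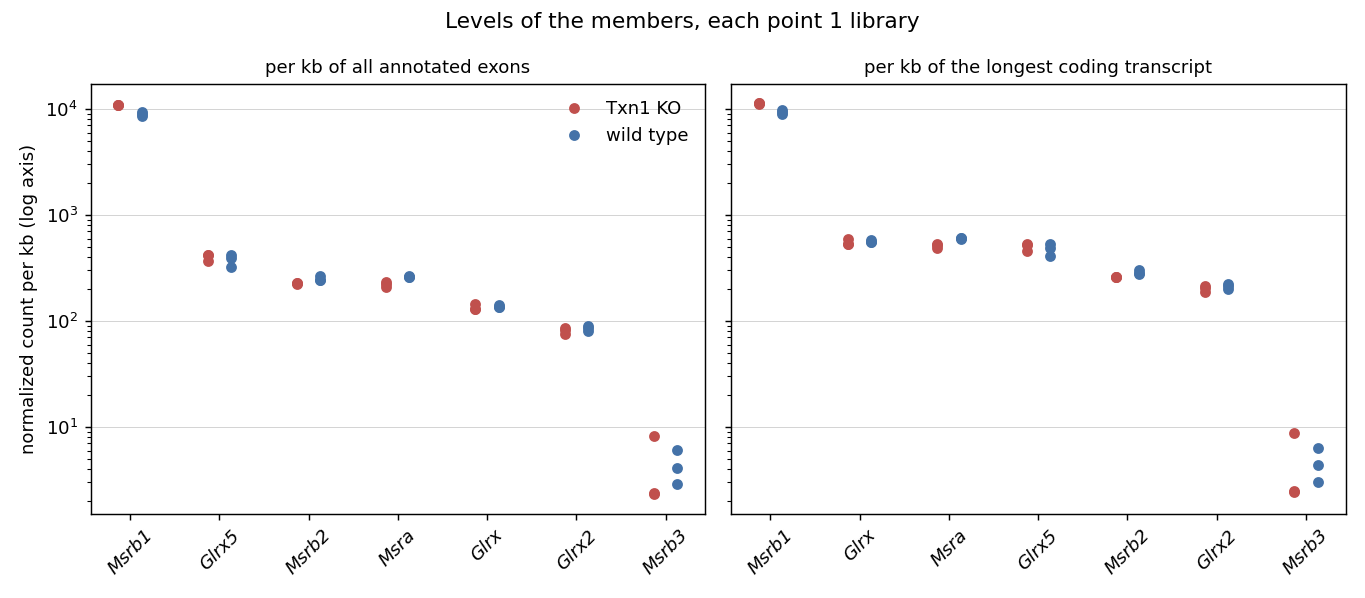
Normalized count per kilobase (log y axis) of each member, ordered by the Txn1 KO mean, with 1 point per library, Txn1 KO in red and wild type in blue. The left panel divides by all annotated exons and the right by the longest coding transcript, and in both Msrb1 stands near 10893 to 11316 per kb in Txn1 KO libraries, far above the other 6.

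Msrb1 took a larger part of the reductases in the libraries labelled Txn1 KO. Its level per kb was 48.6, 52.0 and 47.0 times that of Msra in the libraries labelled Txn1 KO, against 35.5, 33.1 and 34.3 times in wild-type. The groups did not overlap, and the ratio, which no library scaling can change, was 1.43 times as high in the libraries labelled Txn1 KO. It restates the calls of Msrb1 and Msra and is given with no test. Of the summed level of the 4 reductases per kb, Msrb1 made up 96.0% ± 0.101 in the libraries labelled Txn1 KO and 94.5% ± 0.311 in wild-type (SD, n = 3 each). Summed over the 4, the reductases had 11346 ± 32.5 per kb in libraries labelled Txn1 KO and 9514 ± 372 in wild-type. Without Msrb1 the sum went the other way, at 453.0 ± 10.8 per kb in libraries labelled Txn1 KO and 518.0 ± 9.03 in wild-type. These values did not overlap. Both sums restate values of the members: the first is mostly Msrb1, the second mostly Msra and Msrb2. For each of them the exact two-sided permutation p was 0.1. The 3 glutaredoxins summed to 619.5 ± 17.9 per kb in libraries labelled Txn1 KO and 601.9 ± 56.3 in wild-type, with overlapping values (exact two-sided permutation p = 0.8; 3 against 3 libraries cannot go below 0.1).

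The promoter of Msrb1, the member with the highest level and the only rise, is printed here, with every GGGCGG, the core of the GC box that Sp1 binds, in capitals. The window covers 250 bases before to 50 after the RefSeq start, chr17:24736343-24736642, plus strand, GRCm38.p6.
Msrb1: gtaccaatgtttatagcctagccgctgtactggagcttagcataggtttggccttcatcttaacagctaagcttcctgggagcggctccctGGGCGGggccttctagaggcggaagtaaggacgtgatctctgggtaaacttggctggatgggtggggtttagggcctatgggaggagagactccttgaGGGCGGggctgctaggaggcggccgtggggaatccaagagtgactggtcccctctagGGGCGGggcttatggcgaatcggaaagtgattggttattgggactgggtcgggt
The window held 3 matches, all on the printed strand, beginning 159, 61 and 4 bases before the start. GGGCGG was not particular to Msrb1: the window of Msrb3, the member with the lowest level, also held 3 matches. For Glrx2, 2 overlapping windows held the same 2 matches. On either strand GGGCGG occurred in 35.7% of the 32851 promoter windows of the table. The letters TGACNNNGC, a core of the element that NRF2 binds, were not in this window on either strand, and were in 12.4% of all windows. Of the 7 members 6 matched the table by symbol, all but Msra, and among them TGACNNNGC occurred in the window of Msrb2 alone. A match describes letters only.

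Genes of the surrounding pathways were counted in 7 lists chosen by function. The lists held 70 tested genes, of which 15 rose and 7 fell, and their median log2 difference was 0.0020. The background is 11.5% of all genes tested called higher and 9.97% called lower. Every comparison below is between the same 2 groups of libraries.

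The suppliers of electrons moved unequally. Of 5 genes around thioredoxin, Txnrd1 rose and Txnip fell, and Txn1, Txn2 and Txnrd2 did not pass. Txnrd1, the reductase that recharges thioredoxin, had 15894 ± 194 normalized counts in libraries labelled Txn1 KO and 9649 ± 152 in wild-type (SD, n = 3 each). Txnip, a protein that binds thioredoxin, had 9222 ± 224 normalized counts in libraries labelled Txn1 KO and 11532 ± 155 in wild-type. All 5 genes of glutathione supply and reduction rose, with a median log2 difference of 1.19. Gclm, the modifier subunit of the first enzyme of glutathione synthesis, had 12891 ± 1032 normalized counts in libraries labelled Txn1 KO and 4381 ± 155 in wild-type. The catalytic subunit Gclc rose by 1.19, the cystine transporter Slc7a11 by 1.52 and glutathione reductase, Gsr, by 1.08 (log2). Over all 6 libraries the glutaredoxins that draw on glutathione did not pass. Without the 2 libraries with liver transcripts Glrx5 passed (log2 0.24, limma adjusted p = 0.00607).

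All 3 genes of the MICAL family, which oxidize methionines of actin, rose, with a median log2 difference of 0.70. Mical1 had 4569, 4678 and 4477 normalized counts in the libraries labelled Txn1 KO, against 4081, 3883 and 4058 in wild-type (log2 0.19 ± 0.037 SE, limma adjusted p = 0.00108). Mical2 had 481.1, 490.9 and 428.0 in libraries labelled Txn1 KO against 309.8, 284.4 and 266.6 in wild-type (log2 0.70 ± 0.087, limma adjusted p = 1.49e-05). Mical3 had 300.2, 269.8 and 305.5 in libraries labelled Txn1 KO against 161.0, 174.8 and 160.1 in wild-type (log2 0.82 ± 0.10, limma adjusted p = 1.60e-05). The groups did not overlap for any of the 3, and all 3 passed in every alternative run.

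In the methionine cycle and salvage list 2 of 13 rose and 2 fell. Adi1, an enzyme of methionine salvage, had 2386 ± 44.2 normalized counts in libraries labelled Txn1 KO and 1230 ± 28.2 in wild-type (SD, n = 3 each; log2 0.96, limma adjusted p = 5.47e-11). Ahcy, which splits S-adenosylhomocysteine, fell by 0.52 on the log2 scale (limma adjusted p = 0.000292). Ahcyl1, a relative of Ahcy, rose by 0.13.

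Among 9 genes listed around selenocysteine and its insertion into proteins such as MsrB1, 2 rose and 0 fell. Sephs2, which makes the selenium donor and is itself a selenoprotein, had 3062 ± 193 normalized counts in libraries labelled Txn1 KO and 2360 ± 107 in wild-type (log2 0.37, limma adjusted p = 2.41e-05). Secisbp2l, a relative of the SECIS-binding protein, rose by 0.12 (limma adjusted p = 0.0409). The count was 1 in place of 2 without Txn1 KO replicate 2, without wild-type replicate 2 or without wild-type replicate 3, with the replicate block, with DESeq2 and in the authors' deposited table. With both liver-transcript libraries left out, 1 gene was called higher and 1 lower: Secisbp2l did not pass (limma adjusted p = 0.10), and Eefsec, the elongation factor for selenocysteine, passed at -0.32 (log2, limma adjusted p = 0.0136).

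Of 29 genes of iron-sulfur cluster assembly, the pathway of Glrx5, 1 rose and 3 fell, with a median log2 difference of -0.03. Ciapin1, of the cytosolic pathway, rose by 0.17 (limma adjusted p = 0.0247). Nubp2, a cytosolic scaffold, fell by 0.20 (limma adjusted p = 0.00543). Iba57, a late-acting mitochondrial factor, fell by 0.34 (limma adjusted p = 0.0470) and did not pass with both liver-transcript libraries left out (limma adjusted p = 0.243). That fit called Iscu, the scaffold of cluster assembly, higher (log2 0.16, limma adjusted p = 0.00783), which made 2 called higher and 2 lower. The 4 calls became 1 without Txn1 KO replicate 1, without wild-type replicate 3, with DESeq2 and in the authors' deposited table, and 2 without wild-type replicate 1 and with the replicate block.

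Of 6 other tested genes with a glutaredoxin fold, Sh3bgrl2 rose by 0.29 (limma adjusted p = 0.000204) and Sh3bgrl fell by 0.23 (limma adjusted p = 0.00251). Glrx3, the cytosolic monothiol glutaredoxin, did not pass, with a log2 difference of -0.04 and a 95% interval of -0.13 to 0.04.

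**Figure D4:**
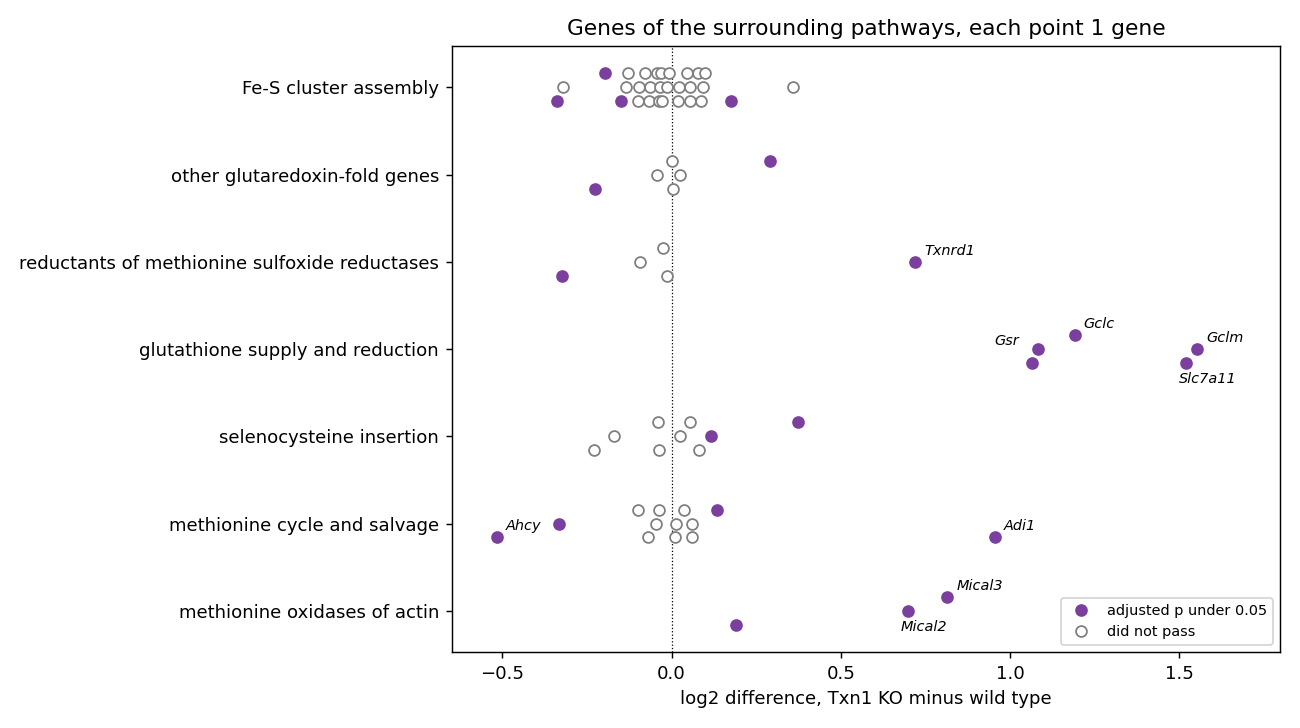
Log2 difference, Txn1 KO minus wild type (x axis), of each tested gene in the 7 surrounding lists (rows), filled where the adjusted p is under 0.05. The 5 glutathione genes and the 3 MICAL genes lie wholly above 0, while iron-sulfur cluster genes lie on both sides, with 4 of 29 called.

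The genes most like each called member were found by the root mean square difference between log2 levels centred over the 6 libraries. Candidates were 10495 genes with a mean of at least 50 normalized counts. Members and genes with Gm-number, Rik or bare identifier symbols were left out. For Msrb1 the nearest were Ninj1, whose product ruptures the plasma membrane of dying cells, at 0.0086, and Cd151, a tetraspanin, at 0.010. For Msra the nearest were Cenpl, a centromere protein, at 0.020, and Urm1, a ubiquitin-like sulfur carrier, at 0.029. Cenpl itself did not pass (limma adjusted p = 0.12). With so few libraries in 2 groups, many genes must come close to any profile, and these are given as a description.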

How the data were processed

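PolyA-selected RNA of 6 libraries was measured. Reads were processed with bcl2fastq 2.20, Trimmomatic 0.36, STAR 2.5.2b and DESeq2 on GRCm38 (mm10), per the submitters' processing notes; they name no read counter, strand setting or annotation. The deposited signal holds read counts that the authors scaled by library size factors: 100% of values were whole multiples of the step at a tolerance of 0.01 reads. The log2 fold changes, p-values and adjusted p-values in the deposited table are the authors'. Control columns carry BMDM and the replicate number, and were assigned to wild-type as the only group left. 3 reads, the smallest level told from 0, were 2.33 to 4.04 normalized counts (counting error only).

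limma 3.58.1 (R 4.3.3) was fitted to log2(normalized count + 1) for 13977 genes, those averaging 10 or more, all 7 members among them. The added 1 draws log2 differences of low genes toward 0. Means of log2 values can also differ from log2 of means: Msrb3 had -0.20, while its mean count in libraries labelled Txn1 KO was 99.5% of wild-type. Alternatives were other pseudocounts, filters and scaling, each library left out, the replicate number as a block, edgeR 4.0.16 and DESeq2 1.42.0 on the recovered reads, and the authors' statistics. Of each list the 4 called genes with the smallest p were named (2 where none was called); Glrx3, Iscu, Eefsec and the uncalled thioredoxin genes were named after their values were seen, and some called genes of the lists are not reported here. Members and lists were chosen with earlier results of these data known. No label ties replicates to separate animals or cultures, so the p-values reflect only the spread among these libraries, possibly technical. The scripts were tested on simulated data.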

Additional observations from a re-analysis of the deposited data

How the results depend on the processing

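Msra and Msrb1 passed in all 16 alternatives, at -0.27 to -0.20 and 0.24 to 0.30 (log2). Msrb2 did not pass in any and ran from -0.17 to -0.11, and Glrx2 likewise from -0.11 to -0.0089. Glrx5 passed without the 2 libraries with liver transcripts (0.24), and leaving out 1 library at a time gave -0.013 to 0.17. Glrx ran from -0.082 to 0.00077 in those fits. Msrb3 ran from -0.77 to 0.10 in them, was 0.35 without the 2 libraries with liver transcripts, and was 0.0060 with edgeR, 0.0028 with DESeq2 and 0.0029 in the authors' deposited table; it was not tested at a mean of at least 50. The causes were not tested. Members called numbered 2 or 3, and genes called overall 2087 to 3005 (3001 as reported), with 2969 by edgeR on recovered reads. Without wild-type replicate 3, 891 genes were called lower. The surrounding lists had 17 to 23 calls (22 as reported).

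Deviations from the group means correlated at -0.27, 0.14 and -0.33 between libraries with the same replicate number. Txn1 KO libraries correlated best with wild-type replicates 3, 3 and 1, the last match joining the 2 libraries with liver transcripts. Correlations of so few libraries, centred within each group, cannot decide whether the libraries were paired. The replicate block cannot change the log2 differences in this balanced layout, only their errors. With it 2 members passed (limma adjusted p = 0.00707 for Msra and 0.000112 for Msrb1), with 2675 genes called. Depth limits Msrb3, which had 7 to 29 reads a library.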

Other observations

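Msrb1 belongs to the selenoproteins, and the other genes of that class in these libraries were looked at after its value was seen. GENCODE M21 annotates a selenocysteine codon in 24 mouse genes, of which 20 were tested. In the libraries labelled Txn1 KO 5 were called higher and 2 lower, with a median log2 difference of 0.02, beside 11.5% of all genes tested called higher and 9.97% called lower. Without the 2 libraries with liver transcripts 6 were called higher and 3 lower. Besides Msrb1, Txnrd1 and Sephs2, those called higher were Gpx3, a secreted glutathione peroxidase, and Selenos, a protein of the endoplasmic reticulum membrane. Gpx3 had 1397 ± 37.5 normalized counts in libraries labelled Txn1 KO and 789.4 ± 49.4 in wild-type (SD, n = 3 each; log2 0.82, limma adjusted p = 1.06e-08). Selenos had 3512 ± 72.1 in libraries labelled Txn1 KO and 3017 ± 23.1 in wild-type (log2 0.22, limma adjusted p = 0.000322).

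The 2 called lower were Selenow, a small cytosolic selenoprotein, and Dio2, the deiodinase that activates thyroid hormone. Selenow had 1624, 1729 and 1585 normalized counts in libraries labelled Txn1 KO, against 2254, 2122 and 2000 in wild-type (log2 -0.37, limma adjusted p = 4.66e-05). Dio2 had 6370.0, 6511 and 5481 in libraries labelled Txn1 KO, against 7229, 7541 and 7614 in wild-type (log2 -0.29, limma adjusted p = 0.000483). Gpx4, the peroxidase of membrane lipids, had a log2 difference of -0.0018 and did not pass (limma adjusted p = 0.981).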
